A study of Saccharomyces cerevisiae with 12 samples.

Results

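Untreated pdr1sae2 cells, which lack SAE2, were compared with untreated pdr1 cells by CC-seq, a method that maps DNA ends still covalently bound to a protein. Each group held 2 libraries labelled as biological replicates, so 4 of the 12 libraries of the series were used here, chosen by strain and by the absence of drug. The other 8 libraries came from cells given VP16 (etoposide) or from a strain without MRE11. Both strains were budding yeast of the BY4741 background and carried the pdr1DBD-CYC8 cassette at PDR1, which lowers drug export, so the comparison strain was not wild type. Cells grew vegetatively in YPD and received 2% DMSO in place of VP16 for 4 h. A hit is the 5′ terminal nucleotide of 1 mapped read pair, on the Watson or the Crick strand. The method takes it as a protein-linked end, but repeated reads of an end cannot be told from separate ends.

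Topoisomerase 2 (Top2) passes one DNA duplex through another by cutting both strands and holding each 5′ end through a tyrosine until it reseals the break. The cuts on the strands are staggered, so an arrested complex leaves protein-linked ends on Watson and Crick a few bases apart. Sae2 stimulates the nuclease activity of the Mre11 complex, which clips protein-linked 5′ ends off the DNA, in meiosis after Spo11 cutting and in growing cells on topoisomerase adducts. Untreated cells show how many such ends a strain carries, and where, when no drug holds Top2 on DNA.

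The nuclear genome received 2584856 and 965863 hits in the pdr1sae2 libraries (replicate 1, then replicate 2, here and in every pair of values that follows), against 2586068 and 685100 in the pdr1 libraries. Measures that depend on depth were therefore taken on 685100 nuclear hits drawn at random from each library, called equal depth below. The labels were first checked at SAE2 (chromosome VII, 173285 to 174322, R64 coordinates). A stretch of 500 bp inside its reading frame, 173700 to 174199, held 1 and 1 hit in pdr1sae2, where the mean density of those libraries would give 112 and 41.9 hits. It held 108 and 21 hits in pdr1. An interval of 900 bp inside PDR1 held 0 or 1 hit in each of the 4 libraries, which marks the cassette that both strains share. MRE11 kept 91.0% and 96.0% of the mean density in pdr1sae2 and 84.8% and 85.9% in pdr1.

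The replicate numbers stood apart from each other in both strains. URA3, the gene for an enzyme of uracil synthesis that is deleted in BY4741, held 1 and 61 hits in pdr1sae2, against 1 and 27 in pdr1. The density over its reading frame was 0.555% and 90.6% of the library mean in pdr1sae2, and 0.555% and 56.6% in pdr1. The same split ran through the whole series, with 0 to 5 URA3 hits in the 6 libraries of replicate 1 and 27 to 140 in the 6 of replicate 2. The maps of replicate 1 and replicate 2 therefore differed at this locus in both strains. Whether that bears on any other value was not tested. Pearson r over 50 bp bins at equal depth was 0.458 between the strains within replicate 1 and 0.239 within replicate 2, and 0.284 between the pdr1sae2 replicates against 0.27 between the pdr1 replicates. Across both strain and replicate number it was 0.288 and 0.260. By this measure the replicate 1 libraries were closest, while those of replicate 2 were no closer to each other than to replicate 1. Over the 3 bp offset sites, defined below, r was 0.936 between the strains within replicate 1 and 0.876 within replicate 2. It was 0.715 between the pdr1sae2 replicates, 0.728 between the pdr1 replicates, and 0.741 and 0.693 across both. At these sites the libraries of replicate 2 were thus closer to each other than to replicate 1. Results are accordingly given per library, and the differences within each replicate number stand beside the pooled one.

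The strongest sites of these drug-free cells shared a symmetric sequence. A 3 bp offset site is a Watson position with the Crick position 3 bp further on, which together bound a 4-base overhang. The 10 sites with the highest mean HpM (hits per 1000000 nuclear hits) over the 4 libraries are shown because the values below turn on them. They were taken from 740 sites that were hit on both strands in every library, lay off chromosome III and were unique in the genome over 40 bp. The RefSeq R64 sequence of the Watson strand is given 5′ to 3′ over 30 bases, and the capitals mark 12 bases, of which the middle 4 are the overhang.
Site 1, CYC3-CDC19, chrI:71495-71524: ttcccatatGATGCTAGGTACctttagtgt
Site 2, ECM19-CCW14, chrXII:903435-903464: tcttttcctGTATATAGCATCaatagtaaa
Site 3, HAP4-SLD2, chrXI:234290-234319: atatcttccGTATATCACATCacgtttacg
Site 4, BUD14-ADE1, chrI:169053-169082: ttgatccatGTAGCCATACTCgaaatttca
Site 5, SIP5, chrXIII:549167-549196: cctctttgaGACCATAGCATCacagtttga
Site 6, BMT5, chrIX:182189-182218: aaagatgtaGAACCTAGCATCacgttcttt
Site 7, DED81-YHR020W, chrVIII:143798-143827: tggataagcGATGCTTGAGTCactgaatgt
Site 8, FHL1, chrXVI:735837-735866: cacatctgtGTATATAGCATCagcagtggg
Site 9, GIM3-INN1, chrXIV:346127-346156: gtcctctaaGTACTTAGCTTCctgtaaaat
Site 10, KGD1-AYR1, chrIX:125870-125899: tttgttcatGATGTTAGCATCtgcttagtc
All 10 began the capitals with guanine and ended them with cytosine, the pattern GNNNNNNNNNNC, which reads the same on both strands. The longer string TAGCATC, on either strand and ending at the same cytosine, was present in 6 of the 10. Sites 2 and 8, on different chromosomes, had the same 12 letters.

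This pattern was chosen after the sequences were seen, so it is described and not tested. It was present at 87.2% and 77.0% of the sites with at least 8 hits at equal depth in pdr1sae2, and at 82.9% and 84.8% in pdr1, against 3.71% of all unmasked positions of the genome. The 95% Wilson intervals were 84.9% to 89.1% and 71.2% to 81.9% in pdr1sae2, and 80.2% to 85.3% and 79.5% to 88.9% in pdr1. These intervals cover only counting error over the sites within a library, and not the spread between libraries. Those of the pdr1sae2 replicates did not overlap each other. No hit is tied to a molecular identifier, so repeated reads of an end are not covered either. Stronger sites held the pattern more often than the weakest ones in all 4 libraries. Among sites with 1 hit on each strand it was 15.7% and 8.45% in pdr1sae2, against 14.5% and 9.33% in pdr1, and among sites with at least 16 hits it was 93.2% and 84.7% in pdr1sae2, against 89.9% and 84.7% in pdr1. The difference between strains was 4.26 percentage points in replicate 1 and -7.73 in replicate 2, so the order of the strains turned round between the replicates. TAGCATC at this place was found at 7.23% and 17% of the sites in pdr1sae2 and 7.33% and 14.3% in pdr1, against 0.0139% of genome positions.

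Guanine stood 4 bases 5′ of the linked nucleotide at 93.0% and 87.4% of sites in pdr1sae2 and at 90.4% and 91.9% in pdr1, where 19.1% of the genome is guanine. The next base towards the cut was adenine at 72.0% and 71.5% of sites in pdr1sae2 and at 69.5% and 74.4% in pdr1. The linked nucleotide itself was cytosine at 43.2% and 52.8% of sites in pdr1sae2 and at 38.2% and 49.3% in pdr1. It was adenine at 34.2% and 29.6% of sites in pdr1sae2, and at 34.5% in replicate 2 of pdr1 and a higher share in its replicate 1. Both pdr1sae2 libraries thus lay below both pdr1 libraries for this base, but only narrowly, with 34.2% against 34.5% at the nearest. With 2 libraries a side an exact permutation test cannot go below 0.333, so such a separation says little by itself. The difference of the means, -5.39 percentage points, was the largest between the strains at sites over 44 positions. Replicates of a strain differed by up to 14.4 percentage points over the same positions. Over all hits adenine was the linked nucleotide in 34.4% and 36.2% in pdr1sae2 and in 36.3% and 36.9% in pdr1, a difference of -1.34 percentage points. This base was singled out after its values were seen and was not tested. Cytosine just 5′ of the cut bond stood at 18.5% and 18.9% of sites in pdr1sae2 and at 20.5% and 15.9% in pdr1. The genome holds 19.1% cytosine, so the sites showed no clear excess of this base. Cytosine there was also measured over all hits, not only at sites. It preceded 22.3% and 23.0% of hits in pdr1sae2 and 22.9% and 21.9% in pdr1, a difference of 0.236 percentage points that was within the spread between replicates (exact two-sided permutation p = 0.667, n = 2 each). With VP16 the same base preceded at least 46.4% of hits in the pdr1sae2 libraries and at least 51.4% in the pdr1 libraries. The GNNNNNNNNNNC pattern was at 16% and 13.9% of sites in pdr1sae2 and 16.3% and 15.1% in pdr1 given VP16, at the same depth and minimum of hits. Sites off chromosome III then numbered 1652 and 4296 in pdr1sae2 and 5796 and 2653 in pdr1. Untreated libraries had 982 and 235 in pdr1sae2 and 819 and 223 in pdr1. A lower share among more sites does not show that sites with the pattern were lost.

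**Figure D1:**
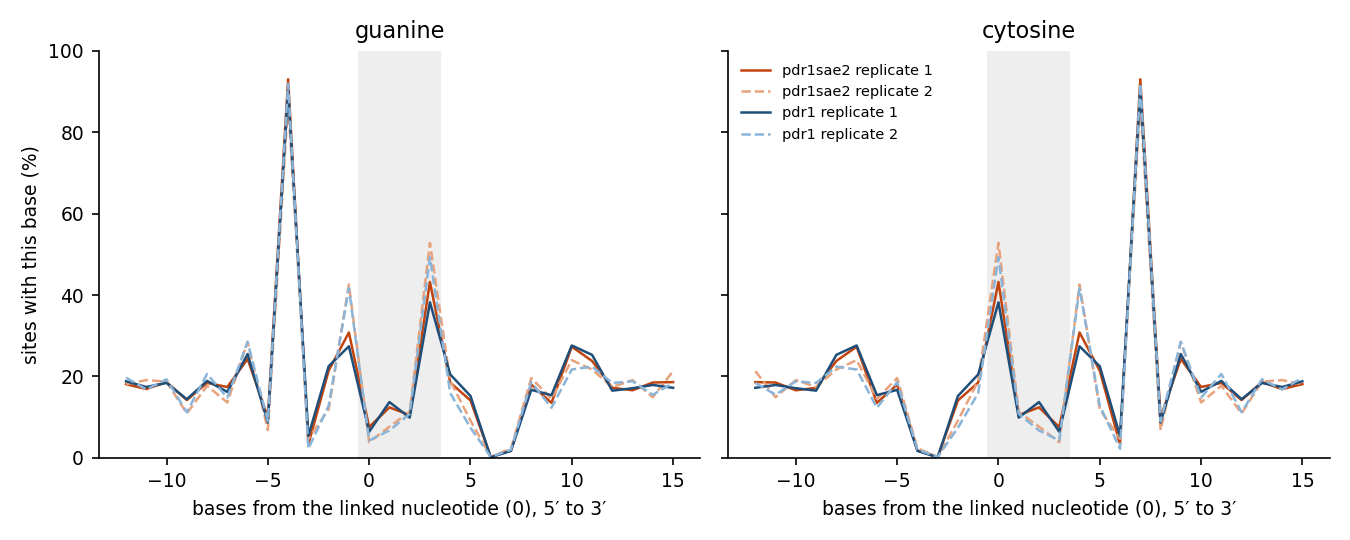
Percentage of 3 bp offset sites (at least 8 hits, both strands, equal depth) with guanine (left) or cytosine (right) at each base from the linked nucleotide at 0, both strands of each site read 5′ to 3′, 1 line per library; the grey band is the 4-base overhang. Guanine peaks at 87.4% to 93.0% of sites at -4 in all 4 libraries. Since both strands of each site are read, the cytosine peak at 7 mirrors it by construction.

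Sites were next counted at equal depth, to ask whether loss of Sae2 alone left more of them. A threshold of at least 8 hits with both strands hit gave 1013 and 248 sites in pdr1sae2 and 842 and 232 in pdr1. The pdr1sae2 library had 171 more sites in replicate 1 and 16 more in replicate 2. The mean difference of 93.5 sites was below the spread between replicates (SD 541 in pdr1sae2 and 431 in pdr1; exact two-sided permutation p = 0.667, n = 2 each). With 2 libraries a side this test cannot go below 0.333, so no library value could pass 0.05. Sites held 2.35% and 0.544% of the thinned hits in pdr1sae2 and 1.78% and 0.545% in pdr1. All but a few percent of hits thus lay outside such sites in every library. Replicate 1 of each strain had the more concentrated signal, and the difference between replicate numbers exceeded that between strains.

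The number of positions hit on both strands peaked at an offset of 3 bp in all 4 libraries. At equal depth there were 15552 and 12153 such pairs in pdr1sae2 and 15729 and 12508 in pdr1. The median over 200 other offsets, up to 100 bp either way, was 9258 and 9790 in pdr1sae2, against 9341 and 9826 in pdr1. The excess over that median was 68.0% and 24.1% in pdr1sae2, against 68.4% and 27.3% in pdr1, slightly lower in pdr1sae2 in both replicates. The hits on Watson and Crick at these pairs correlated with r of 0.527 and 0.552 in pdr1sae2, against 0.492 and 0.479 in pdr1, and at no other offset was r above 0.190. This correlation is a description across positions, which are not independent replicates. Its groups did not overlap, with a difference of 0.0540 against a spread within groups of 0.0144 (exact two-sided permutation p = 0.333, n = 2 each, the smallest possible). At full depth the groups overlapped, with 0.584 and 0.560 in pdr1sae2, against 0.574 and 0.479 in pdr1.

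**Figure D2:**
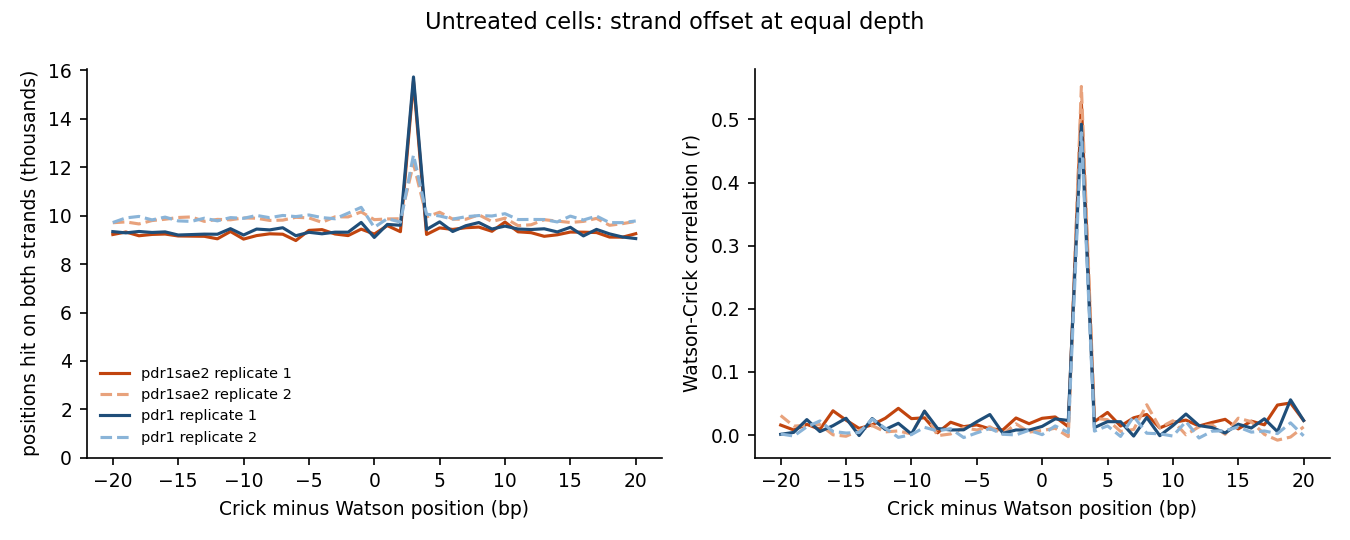
Positions hit on both strands, counted in units of 1000 (left), and the Watson-Crick correlation of their hits (right) against the Crick minus Watson distance in bp, 1 line per library thinned to 685100 nuclear hits. All 4 libraries peak at 3 bp, with 15552 and 12153 pairs in pdr1sae2 and 15729 and 12508 in pdr1, and replicate 2 of each strain has the lower peak.

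Strand balance did not separate the strains. Sites with at least 8 hits on either or both strands were tested for equal strands with an exact binomial test. Unequal strands (p of 0.05 or less) were found at 30.6% and 26.2% of 1112 and 263 sites in pdr1sae2, and at 24.3% and 33.1% of 893 and 260 sites in pdr1. The share was 6.28 percentage points higher in pdr1sae2 in replicate 1 and 6.84 lower in replicate 2. The 1000 strongest sites, ranked in the other replicate of the strain, took 1.65% and 0.779% of hits in pdr1sae2 and 1.38% and 0.822% in pdr1. Their order too turned round between the replicates (exact two-sided permutation p = 1.00 for both measures, n = 2 each).

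Many of the sites were common to both strains. In replicate 1 they shared 586 sites, 57.8% of those in pdr1sae2 and 69.6% of those in pdr1. In replicate 2 they shared 152, 61.3% of those in pdr1sae2 and 65.5% of those in pdr1. Between replicates of a strain the overlap was 190 sites in pdr1sae2 (18.8% of replicate 1 and 76.6% of replicate 2) and 182 in pdr1 (21.6% and 78.4%). Most sites of the sparser libraries were therefore also sites in replicate 1.

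No single site passed the test between the strains. Among 4869 sites with at least 20 hits summed over the 4 libraries, 2012 passed the filter on low counts. The edgeR quasi-likelihood test called 0 of them at a Benjamini-Hochberg adjusted p under 0.05 (0% of those tested), and 0 had an unadjusted p under 0.05. DESeq2 also called 0, with 2 at an unadjusted p under 0.05. The standard error of a log2 difference had a median of 1.36 over the tested sites. With the replicate number as a block in the fit, 0 were called and 50 had an unadjusted p under 0.05. Of the tested sites, 596 were higher in pdr1sae2 in both replicates, 351 were lower in both and 1065 went opposite ways. The median log2 difference was 0.22 in replicate 1 and -0.27 in replicate 2. These ratios were taken at full depth with 0.5 added to each count. A site without a hit in either replicate 2 library therefore counted as lower in pdr1sae2, whose replicate 2 was the deeper. The directions and the median in replicate 2 thus hold this effect of depth along with any difference between the strains.

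The strongest site lay 275 bp before the start codon of CDC19, which encodes the main pyruvate kinase of glycolysis. It had 166 and 162 HpM in pdr1sae2 against 141 and 153 in pdr1. Both pdr1sae2 libraries lay above both pdr1 libraries, yet the log2 difference of 0.16 ± 0.32 (SE) did not pass (edgeR adjusted p = 1.000). Site 2, 273 bp before CCW14, the gene of a cell wall glycoprotein, had 152 and 133 HpM in pdr1sae2, against 144 and 137 in pdr1. Site 3 lay 120 bp before SLD2, a replication initiation gene, and downstream of HAP4, a gene for an activator of respiratory genes. It had 115 and 94.2 HpM in pdr1sae2, against 103 and 128 in pdr1. The groups overlapped at sites 2 and 3.

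Of the other intergenic sites, 4, 7 and 9 lay between divergent genes and 10 between tandem ones. Site 4 was 195 bp before BUD14, a gene of bud site selection, and 306 bp before ADE1, a purine synthesis gene. It had 124 and 87.0 HpM in pdr1sae2, against 90.1 and 107 in pdr1. Site 7 lay between the genes for a pair of aminoacyl-tRNA synthetases, DED81 and YHR020W, with 80.5 and 77.7 HpM in pdr1sae2, against 63.0 and 107 in pdr1. Site 9 was 82 bp before GIM3, which encodes a prefoldin subunit, and 170 bp before INN1, a cytokinesis gene, with 106 and 48.7 HpM in pdr1sae2, against 82.0 and 67.1 in pdr1. Most of its hits were on Crick, with 14 Watson and 260 Crick hits in replicate 1 of pdr1sae2 and 7 and 205 in replicate 1 of pdr1. Site 10, 318 bp before the lipid synthesis gene AYR1, had 95.6 and 59.0 HpM in pdr1sae2, against 70.0 and 67.1 in pdr1.

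The remaining 3 sites lay inside reading frames and were weaker in replicate 2 of both strains, as were the intergenic sites 2, 9 and 10. Site 5, near the 3′ end of SIP5, had 125 and 51.8 HpM in pdr1sae2, against 118 and 64.2 in pdr1. Site 6, in BMT5, which encodes an rRNA methyltransferase, had 127 and 32.1 in pdr1sae2, against 104 and 68.6 in pdr1. Site 8, in FHL1, a transcription factor of ribosomal protein genes, had 120 and 28.0 in pdr1sae2, against 124 and 48.2 in pdr1. The mean over these 3 was 124 and 37.3 HpM in pdr1sae2, against 116 and 60.3 in pdr1, whereas the mean over the 7 intergenic sites was 120 and 94.4 in pdr1sae2, against 98.9 and 109 in pdr1. Across all 10 sites, 9 were higher in pdr1sae2 in replicate 1 and 9 were lower in replicate 2. Log2 differences ran from -0.21 to 0.18 with standard errors of 0.32 to 0.56, and the lowest unadjusted p was 0.618 by edgeR.

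**Figure D3:**
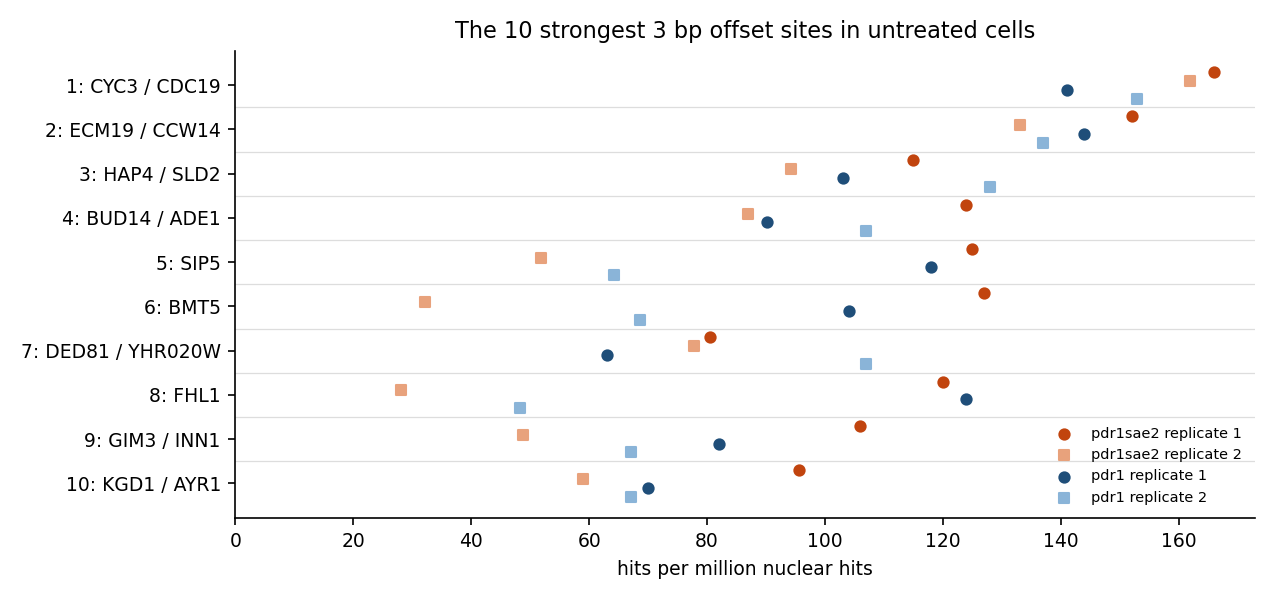
HpM, hits per 1000000 nuclear hits (x axis), at the 10 strongest 3 bp offset sites (rows, named by gene or flanking genes), 1 point per library at full depth, circles for replicate 1 and squares for replicate 2. Points of the strains interleave at most sites, and at the reading frame sites of SIP5, BMT5 and FHL1 replicate 2 of each strain (28.0 to 68.6) lies below replicate 1 (104 to 127). Replicate 2 also lies below replicate 1 in both strains at the intergenic sites 2, 9 and 10.

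Sites were more frequent in intergenic DNA than its length would give, in every library of both strains. Reading frames make up 73.5% of the unmasked DNA in the annotated regions and held 53.8% and 33.6% of sites in pdr1sae2 and 52.0% and 33.2% in pdr1. Divergent regions, 8.83% of that DNA, held 13.7% and 22.1% of sites in pdr1sae2 and 14.3% and 22.4% in pdr1. Tandem regions, 13.6% of it, held 25.4% and 36.6% in pdr1sae2, against 26.0% and 36.8% in pdr1. Convergent regions, which lie between gene ends and contain no promoter, make up 4.11% and held 6.92% and 7.23% in pdr1sae2, against 7.57% and 7.17% in pdr1. For reading frames, divergent and tandem regions the shares differed less between strains than between replicates of a strain.

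All hits together were far more even than the sites. Intergenic over reading frame density was 0.10 and 0.15 on the log2 scale in pdr1sae2 and 0.11 and 0.22 in pdr1, a difference of -0.04 against a within-group SD of 0.06. The density in promoter-containing over convergent regions (log2) averaged 0.12 ± 0.08 in pdr1sae2 and 0.07 ± 0.10 in pdr1 (SD, n = 2 each). The density over the 200 bp before start codons, over that of the first 1000 bp of the frame, for 3399 reading frames, was 0.17 and 0.21 (log2) in pdr1sae2 and 0.19 and 0.28 in pdr1. Each of these 3 differences lay within the spread between replicates (exact two-sided permutation p = 0.667, n = 2 each). The highest point of the profile was at most 1.21 times the library mean, and it lay upstream of the start codon in every library.

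**Figure D4:**
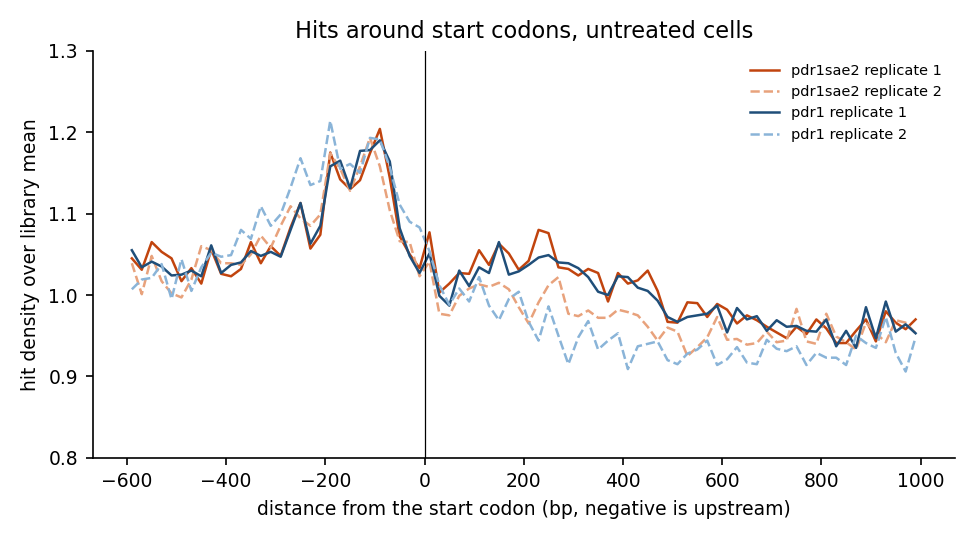
Hit density relative to the library mean (y axis, drawn from 0.8) in 20 bp steps against distance from the start codon in bp (negative is upstream), over 3399 reading frames of at least 1000 bp, 1 line per library. The highest steps, 1.19 to 1.21 times the mean, lie 90 to 190 bp upstream in all libraries, and the lowest, 0.906 to 0.941, lie inside the frames.

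Hits were then summed per reading frame or intergenic region, to ask whether any place gained or lost protein-linked ends without Sae2. Of 11262 regions tested, 1 was called by edgeR, 0.00888% of those tested, and it was SAE2 itself. SAE2 had 66 and 32 hits in pdr1sae2 against 262 and 62 in pdr1, a log2 difference of -1.78 ± 0.21 (SE; adjusted p = 0.000927), and it was called under all 14 alternatives. Since the interval described above is missing from the strain, this call is a check of the genotype and not a change in protein-linked ends. DESeq2 also called this region alone. An unadjusted p under 0.05 was reached by 83 regions (28 higher and 55 lower in pdr1sae2), 0.737% of those tested. With the replicate number as a block 2 regions were called, SAE2 and YLR162W-RRT15, and 517 had an unadjusted p under 0.05. Leaving out pdr1 replicate 1, so that the shallow pdr1 replicate 2 stood alone, raised the calls to 15 (13 higher, 2 lower), and leaving out any other library gave 2, SAE2 and URA3. Over tested regions the differences in replicate 1 and in replicate 2 had r of 0.03 and 51.0% went the same way. The middle 90% of log2 differences lay between -0.31 and 0.28.

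**Figure D5:**
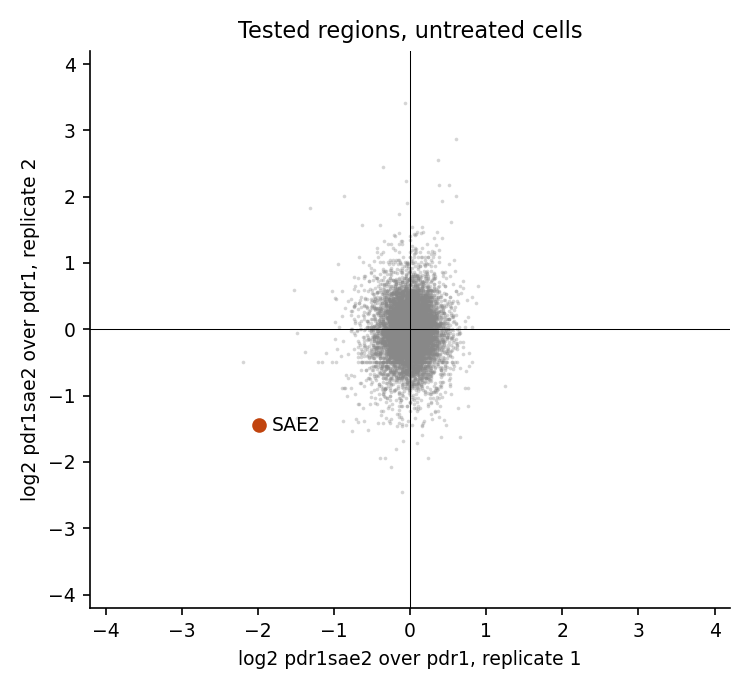
Log2 ratio of HpM, pdr1sae2 over pdr1, in replicate 1 (x axis) and replicate 2 (y axis) for the 11262 tested regions, 1 point each, with 0.5 added to each count. SAE2, at -1.98 and -1.44, stands apart in the lower left, and the other points form a cloud about 0 that spreads further along the axis of the shallower replicate 2.

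The regions next in rank did not pass the test (edgeR adjusted p = 1.000 for each). The lowest unadjusted p among those higher in pdr1sae2, 0.00890, belonged to the region between SMF1, a manganese transporter gene, and RPS19A, a ribosomal protein gene. It had 270 and 91 hits in pdr1sae2, against 185 and 49 in pdr1 (log2 0.49 ± 0.17). The region between STE23 and ECM19 had 108 and 39 hits in pdr1sae2, against 72 and 13 in pdr1 (log2 0.71 ± 0.25). SFT2, YLL056C-YCT1 and LYP1 followed with log2 differences of 0.57, 0.33 and 0.35. Among those lower in pdr1sae2, VPS64-SPC19 had 47 and 14 hits in pdr1sae2, against 69 and 29 in pdr1 (log2 -0.88 ± 0.30). YIL163C-SUC2, RPS29B and YKR032W-DAL80 followed at -1.01, -1.03 and -1.52, with at most 61 hits in any library. At equal depth YIL163C-SUC2 was at -0.11, and without pdr1 replicate 1 it was at -0.37. Without that library STE23-ECM19 was at 1.13 and SFT2 at 0.99. These regions were chosen among those that moved one way in both replicates, so their common direction is no result.

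Without annotation, over 11572 tiles of 1 kb on all 16 nuclear chromosomes, edgeR called 1 tile (0.00864% of those tested). It spanned 173001 to 174000 on chromosome VII, within which the missing part of SAE2 begins, with 126 and 56 hits in pdr1sae2, against 271 and 65 in pdr1 (log2 -0.96 ± 0.18, adjusted p = 0.0408). DESeq2 called 0 tiles, with 9 at an unadjusted p under 0.05 against 102 (0.881%) by edgeR. With the replicate block 2 tiles were called, this one and the adjacent one. Without pdr1sae2 replicate 1 or without pdr1 replicate 1 the tile was not called, and 1 and 2 other tiles were. The adjacent tile, which holds the other end of the gene, had 152 and 56 hits in pdr1sae2, against 260 and 55 in pdr1, and did not pass (adjusted p = 1.000).

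Genes of break repair and of topoisomerases were followed as a list of 23. Apart from SAE2, none of its 23 reading frames and 23 upstream regions was called by edgeR or had an unadjusted p under 0.05. Over all regions 0.737% had such a p, a share at which a list of this length holds few or none, so the count says nothing of these genes in particular. TOP2, the gene of the enzyme itself, had 880 and 360 hits in pdr1sae2, against 878 and 277 in pdr1 (log2 -0.04 ± 0.11). TOP1, which encodes the topoisomerase that cuts a single strand, had 533 and 215 hits in pdr1sae2, against 489 and 125 in pdr1 (log2 0.20 ± 0.12). MRE11, the nuclease gene, had 424 and 167 in pdr1sae2, against 395 and 106 in pdr1 (log2 0.13 ± 0.13). RAD50, XRS2 and TEL1, which encode its partners and the checkpoint kinase they recruit, were at -0.06, -0.03 and -0.05. TDP1 and WSS1, whose products remove protein adducts by other routes, were at -0.02 and 0.08. SPO11, the meiotic Top2-like enzyme gene, was at 0.07.

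Highly expressed and long genes held no called region either. Reads of mapping quality 0 were kept, so hits in near-identical copies, as among ribosomal protein and histone genes, are uncertain. Of 137 reading frames of cytosolic ribosomal proteins 0 was called and 1, RPS29B, had an unadjusted p under 0.05, near the 0.737% over all regions. Their median log2 difference was -0.02, and it was -0.03 over 132 upstream regions, beside 0.00 over all regions tested. The 16 glycolytic reading frames tested had a median of 0.05 and their 16 upstream regions 0.00, with 0 at an unadjusted p under 0.05, which at that background share is not a result about these genes. CDC19, downstream of the strongest site, had 453 and 130 hits in its frame in pdr1sae2 and 419 and 88 in pdr1 (log2 0.09 ± 0.15). The region upstream of it, which holds that site, had 1033 and 322 hits in pdr1sae2, against 898 and 270 in pdr1 (log2 0.02 ± 0.12). The 8 core histone reading frames had a median of 0.09 and their 4 shared promoters -0.07. The widest histone difference was that of HHF1, an H4 gene, at 0.53 ± 0.29, with 79 and 44 hits in pdr1sae2, against 74 and 11 in pdr1. The 179 reading frames of at least 4 kb had a median of 0.01, all between -0.17 and 0.18.

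The amount of protein-linked DNA relative to a spike-in was given by the deposited calibration factor, 1.52 for pdr1sae2 and 1.36 for pdr1. Multiplied by the nuclear fraction of hits, it gave 1.44 and 1.41 in pdr1sae2, against 1.28 and 1.24 in pdr1. The difference was 0.153 in replicate 1 and 0.165 in replicate 2. Because both replicates of a group share 1 factor, these values hold no error of the calibration, and no test was made. With library sizes from this factor the median region was 0.16 higher (log2) in pdr1sae2, a shift that the factors themselves set. Still only SAE2 was called. By edgeR, 676 regions had an unadjusted p under 0.05, against 83 in the main fit.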

How the data were processed

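CC-seq maps of 2 untreated pdr1sae2 and 2 untreated pdr1 libraries were used; the other 8 libraries entered alternatives, the check of URA3 and the values given for VP16. The members and the gene lists were chosen with earlier results of these data known. The authors aligned paired reads with Bowtie2 to Cer3H4L2, the Cer3 genome modified at the HIS4 and LEU2 loci, kept reads of mapping quality 0, and removed rDNA, telomeric and retrotransposon sequence. They deposited counts, whole numbers of hits per nucleotide and strand, without normalization; repeated reads of a molecule cannot be told from separate ends. The authors also deposited a calibration ratio, 1 spike-in factor for each group. Authors' pooled maps were not used.

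Stretches of at least 100 bases without a hit in any library (4.45% of the nuclear genome) were masked. R64 names and sequence (RefSeq) were used off chromosome III, whose deposited map has added sequence. Regions with at least 50 unmasked bases, 1 kb tiles with at least 500, and 3 bp offset sites were fitted with edgeR 4.0.16 (quasi-likelihood, TMM, filterByExpr, strain as the only term) in R 4.3.3, with DESeq2 1.42.0 as an alternative. SE is the log2 difference over the root of F. Thinning drew hits without replacement from a fixed seed (numpy). Named sites are the 10 highest by mean hits per 1000000 nuclear hits; named regions are up to 5 per direction, called ones first and then by smallest p among those moving one way in both replicates. Deviations of same-numbered libraries from their group means correlated in each of the 3 pairs of untreated strains (r of 0.342 to 0.412 over regions, 0.437 to 0.540 over tiles and 0.498 to 0.529 over sites). The pairing comes from these values and the shared numbers, since no label names a batch, so blocked counts stand beside the main ones. Replicate 1 was the deeper library in each of the 3 untreated strains. Whether depth bears on these correlations was not tested. Fits and map functions were tested on simulated data with planted changes and sites. The counts simulated for the fits held no difference between replicate numbers, so they do not give the power of the fits here. Replicate block, 6- and 12-library fits, size factors, filters, depth, minimum hits and leaving out each replicate were alternatives; the guanine-cytosine pattern, the share of hits in sites and the 6-library fit with the block were added after seeing the data.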

Additional observations from a re-analysis of the deposited data

How the results depend on the processing

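The groups share replicate numbers, and same-numbered libraries deviated together, although the labels name no shared batch. The fits without a block leave that shared difference in the spread. In the main edgeR fits 0.737% of regions, 0.881% of tiles and 0 sites had an unadjusted p under 0.05. That is fewer than this threshold gives where nothing differs, so these fits were conservative and their lack of calls is weak evidence. With a replicate block, region calls numbered 2 (SAE2 and the intergenic region YLR162W-RRT15, which was higher in pdr1sae2) with 517 at an unadjusted p under 0.05, tile calls numbered 2 (both over SAE2) with 570, and site calls 0 with 50. The block in all 6 untreated libraries gave 1 region, 2 tiles and 0 sites. Leaving out 1 library gave 2 to 15 region calls and 1 to 2 tile calls, the highest of each without pdr1 replicate 1, and 0 site calls. A lone library was assumed to vary like the others. In 3 of these 4 fits URA3 was the second region called, and the median log2 difference of sites ran from -1.23 to 1.17. The tile over SAE2 was lost under DESeq2 (0 tiles called), with all 6 untreated (0) or all 12 libraries (0) in the fit, at equal depth (0), and without pdr1sae2 replicate 1 or pdr1 replicate 1, where 1 tile at URA3 and 2 tiles on chromosomes XI and III were called instead. SAE2 as a region kept its call in all 14 alternatives, with log2 differences from -1.92 to -1.55 and adjusted p up to 0.0342.

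Of 25 settings tried over 12 library measures, other than leaving out a library, 24 moved the difference by less than the spread between replicates and 4 turned its sign. The exception was the Watson-Crick correlation on log2 hits, where the difference was 0.0179. Leaving out 1 library turned the sign in 18 of 48 cases, as for the number of sites, where the difference ran from -289 to 476. Such a comparison sets 1 replicate of a strain against both of the other, so it also holds the difference between replicate numbers. Within replicate numbers, pdr1sae2 had 171 more sites in replicate 1 and 16 more in replicate 2. At named sites the direction changed in 0 to 4 of 13 alternatives, and 0 was called in any. Only 2 libraries a side, and 685100 nuclear hits in the smallest, limit what could be seen at single sites.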

Other observations

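Windows over tRNA genes and centromeres, sequences bound by protein complexes in every cell, were close to the genome mean. The 259 tRNA windows, each gene with 100 bp on either side, had densities of 0.07 and 0.09 on the log2 scale over the mean in pdr1sae2 and 0.02 and 0.15 in pdr1. The 15 centromere windows, 1 kb on either side, had -0.07 and 0.12 in pdr1sae2, against -0.10 and 0.28 in pdr1. In both classes replicate 2 was the higher in each strain.

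Per chromosome, the log2 density differed between the strain means by -0.01 to 0.02. Chromosome I was the densest in replicate 1 of both strains, at 0.18 in pdr1sae2 and 0.17 in pdr1, and was at 0.06 in pdr1sae2 and 0.03 in pdr1 in replicate 2. Mitochondrial DNA took 4.01% and 6.31% of all hits in pdr1sae2 and 3.80% and 7.54% in pdr1, and the last entry of the maps, taken to be the endogenous plasmid, took 1.85% and 1.43% in pdr1sae2, against 2.04% and 1.34% in pdr1.

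The region YLR162W|RRT15 on chromosome XII, called with the replicate block and without pdr1 replicate 1, had 4589 and 862 hits in pdr1sae2, against 3675 and 599 in pdr1. Per nuclear hit the log2 difference was 0.32 in replicate 1 and 0.03 in replicate 2. It was not called in the main fit of all 4 libraries without the block, or with the block in all 6 untreated libraries. Reads of mapping quality 0 were kept, and whether the sequence of this region is unique was not checked.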
